A study of Mus musculus with 12 samples.

Results

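Of the 56980 genes in the count matrix, 13 were expressed in WT W-20 cells and silent in Y428F cells. The genes were chosen by their measured counts: a gene belonged to this group when it had at least 40 expected counts in each of the 6 WT libraries and at most 5 in each of the 6 Y428F libraries. At least 40 counts in each WT library were found for 10638 genes, of which the 13 are 0.122%. The W-20 line is a murine bone marrow stromal cell (BMSC) line, and bulk RNA-Seq was performed on 12 libraries in 4 groups of 3. WT cells were the unmodified line, and both WT and Y428F cells received 50 nM parathyroid hormone (PTH) or PBS vehicle for 2 hours. Y428F cells were a stable W-20 line that carried a plasmid with Flag-tagged YAP, the transcriptional coactivator of the Hippo pathway, with a single tyrosine replaced by phenylalanine (Y428F), a residue examined in the study as a possible Src site. Positive clones of that line had been selected with puromycin. The study's account of this RNA-Seq names a line with Y428F together with a second YAP substitution, of a serine to alanine, whereas the library titles name Y428F only, so the cells may carry both. The genotype field gives WT for all 12 libraries, so the groups were taken from the titles. No library of W-20 cells with introduced wild-type YAP was analysed here, and the effects of either substitution, the introduced plasmid, the selection and the choice of clone cannot be told apart. Whether the 3 libraries of a group came from separate cultures is not stated, so p-values measure the spread between these libraries, which may be technical.

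In mammalian cells a gene is transcribed where activating factors bind its promoter and enhancers, and CpG-rich promoters are common among widely expressed genes. Interferon-stimulated genes are a well-known block of coordinated expression. Many are driven through a short promoter element, the interferon-stimulated response element (ISRE), and many cultured fibroblast-like cells keep some of them active without added interferon. In bulk RNA, fewer cells that express a gene and less RNA per cell cannot be told apart.

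The counts of these genes chose them, so the difference between the lines is described here without a test. Summed over the 13 genes, the WT libraries had 2131.1, 2239.5 and 2162.4 counts with vehicle and 1890.2, 1903.1 and 1528.9 with PTH. The Y428F libraries had 9, 17 and 7 counts with vehicle and 14, 6 and 9 with PTH. The Y428F total of 62 counts was 0.523% of the WT total of 11855.1. Of the 78 values in Y428F cells, 44 were 0, 19 were exactly 1 and 15 were between 2 and 5. Library totals ranged from 17127897 to 19057319 counts, so depth was similar in both lines. The genes were of modest abundance in WT cells. Their median mean WT count was 137.2 compared with 726.0 for the 10638 expressed genes, and the most abundant of them, *Rsad2*, was above only 27.0% of those genes. As CPM (counts relative to library size, with edgeR's TMM factors), the mean level in Y428F cells was between 0 and 1.84% of that in WT cells, with a median of 0.463%. Among the other 10625 genes with at least 40 counts in each WT library, 69 were below 10% of their WT level. Some of these, such as *Iigp1* and *Gbp6* below, fell to a share within the range of the 13 and were kept out because they were more abundant and exceeded 5 counts.

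**Figure D1:**
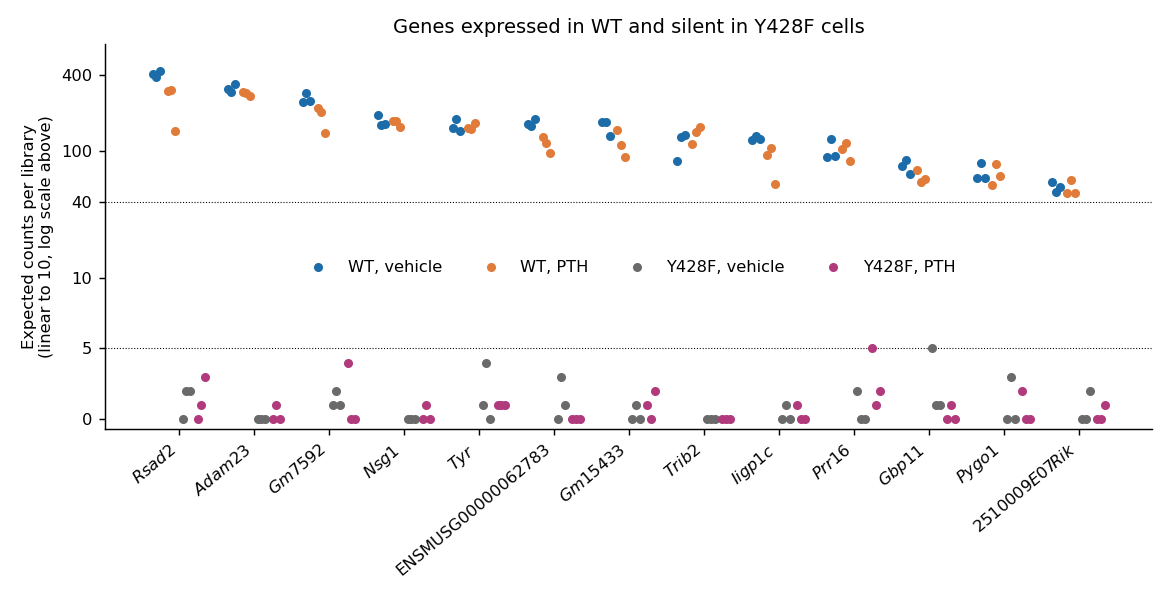
Expected counts of the 13 genes in each of the 12 libraries, with 1 point per library, coloured by line and treatment. The y axis is linear up to 10 counts and logarithmic above, and dotted lines mark the limits of 40 and 5 counts. All WT points lie at 47 counts or more, and all Y428F points at 5 or fewer.

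**Figure D2:**
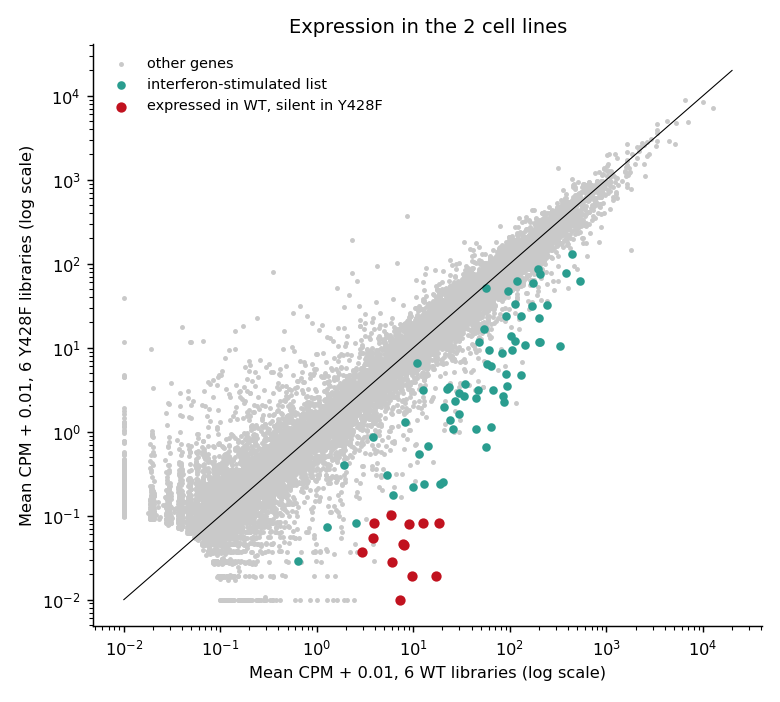
Mean CPM plus 0.01 over the 6 WT libraries (x axis, log scale) and the 6 Y428F libraries (y axis, log scale) for the 17691 genes tested, with 1 point per gene and the diagonal marking equal levels. The 13 genes lie at the lower edge, and nearly all genes of an interferon-stimulated list lie below the diagonal.

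The first group by function comprised antiviral and interferon-inducible genes. *Rsad2* (ENSMUSG00000020641.17, chromosome 12, 26492745 to 26506451 of GRCm39, minus strand) encodes viperin, an antiviral radical SAM enzyme. It had 405, 387 and 429 counts in WT libraries with vehicle and 296, 302 and 144 with PTH. In Y428F libraries it had 0, 2 and 2 counts with vehicle and 0, 1 and 3 with PTH. The lines were far apart, and the third WT library with PTH was the lowest of the WT libraries. *Cmpk2*, the gene that usually lies next to *Rsad2* and is induced with it, had 0 counts in 11 of the 12 libraries and 1 in a WT library with PTH, so its own loss could not be assessed. *Rsad1*, the relative of *Rsad2* by symbol, was higher in Y428F cells with vehicle, at 11.4 and 15.2 CPM in WT and Y428F cells (log2 fold change 0.41, adjusted p = 0.00538). This and the later adjusted p-values are from edgeR, adjusted by the Benjamini-Hochberg method over all genes of the fit.

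The 250 bases before the *Rsad2* start are shown because they hold the one ISRE match in the 6 promoters searched (RefSeq promoter table, GRCm38.p6, chr12:26456453-26456702, minus strand, written 5′ to 3′ in the direction of the gene). Capitals mark the ISRE match, 2 copies of GAAA with NN between them, which lies on the opposite strand and so reads as its reverse complement.
Rsad2: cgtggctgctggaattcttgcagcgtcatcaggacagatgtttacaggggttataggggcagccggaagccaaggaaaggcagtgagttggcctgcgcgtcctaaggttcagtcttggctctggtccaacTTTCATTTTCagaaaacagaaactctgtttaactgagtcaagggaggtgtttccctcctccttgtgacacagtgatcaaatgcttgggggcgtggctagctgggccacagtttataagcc

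*Iigp1c* (ENSMUSG00000073555.2, chromosome 18) belongs to the immunity-related GTPases, which act against intracellular pathogens. It had 123, 131 and 124 counts in WT libraries with vehicle and 94, 106 and 55 with PTH. In Y428F libraries it had 0, 1 and 0 counts with vehicle and 1, 0 and 0 with PTH. Its relative *Iigp1* was much more abundant and fell with it, from 1113, 1008 and 954 counts in WT libraries to 10, 11 and 10 in Y428F libraries with vehicle. The log2 fold change of *Iigp1* was -6.65 (adjusted p = 9.27e-13). *Gm4841*, 19873 bases from *Iigp1c*, had 1.97 CPM in WT libraries with vehicle and 0 counts in all 6 Y428F libraries. It entered the test through WT cells only, so no test is given, and against a floor of 3 counts over the 3 Y428F libraries with vehicle its WT level was at least 37.0-fold higher.

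*Gbp11* (ENSMUSG00000092021.10, chromosome 5, 105470908 to 105494338, minus strand) encodes a guanylate-binding protein, one of a family of interferon-inducible GTPases. It had 77, 85.1 and 66 counts in WT libraries with vehicle and 71, 57 and 60 with PTH. In Y428F libraries it had 5, 1 and 1 counts with vehicle and 0, 1 and 0 with PTH. Other genes of the family were lower too, except *Gbp5*, which was not called. Of 9 other *Gbp* genes tested in Y428F against WT cells with vehicle, 8 were lower, against 22.7% of all 17691 genes. *Gbp7* and *Gbp5*, with few or no counts in Y428F libraries, entered the test only through WT cells and could only be lower. All 7 others, with at least 10 counts over the libraries of each line, were lower, against 25.9% of the 14886 genes that met this limit. *Gbp6*, the expressed gene nearest to *Gbp11*, went from 21.1 to 0.228 CPM (log2 fold change -6.47, adjusted p = 1.98e-12), and *Gbp3* from 36.9 to 1.29 CPM (log2 fold change -4.83, adjusted p = 3.02e-11). These neighbours are similar in sequence, and the count of *Gbp11* was fractional in 1 WT library, so reads were shared among copies and single values in this family are uncertain.

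A pair of predicted genes lay in 1 stretch of chromosome 1, 533519 bases apart. *Gm15433* (ENSMUSG00000118590.2, 84929657 to 84943888, plus strand) had 171, 170.4 and 131 counts with vehicle and 148, 112 and 90.8 with PTH in WT libraries. *Gm7592* (ENSMUSG00000118607.2, 85477408 to 85478298, plus strand) had 246, 288 and 246 counts with vehicle and 219, 205 and 139 with PTH. In Y428F libraries *Gm15433* had at most 2 counts and *Gm7592* at most 4. This stretch holds the *Sp100*, *Sp110* and *Sp140* genes, which encode interferon-inducible nuclear body proteins. *Sp100* went from 21.9 to 3.79 CPM (log2 fold change -2.53, adjusted p = 1.27e-10), *Sp110* from 1.75 to 0.339 CPM (log2 fold change -2.29, adjusted p = 0.000846) and *Sp140* from 11.8 to 6.60 CPM (log2 fold change -0.85, adjusted p = 0.000206). Among the other tested genes within 300 kb of either predicted gene, only *Fbxo36* and *Cab39* were called higher with vehicle. *Sp140l2* (log2 fold change -3.07, adjusted p = 4.51e-07) and *A530040E14Rik* (log2 fold change -1.97, adjusted p = 0.00999) were among those called lower. Some, such as *Gm52955*, had 0 counts in every Y428F library and could only be lower. *Trip12* (log2 fold change 0.01, adjusted p = 0.908) and *A630001G21Rik* (log2 fold change -0.06, adjusted p = 0.901) were among those not called. *Fbxo36*, 51449 bases from *Gm15433*, had 1.30 and 3.07 CPM (log2 fold change 1.23, adjusted p = 0.000314), and *Cab39*, within 300 kb of *Gm7592*, had 79.5 and 91.7 CPM (log2 fold change 0.21, adjusted p = 0.00525). *Gm7609*, a gene of the same stretch, missed the group because its lowest WT library had 34.1 counts. Both predicted genes had fractional counts, so some of their reads may belong to near-identical copies.

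ENSMUSG00000062783.3 was not matched to the annotation used here, and the files pair it with no name. It had 164, 159 and 178 counts with vehicle and 129.9, 116 and 97.5 with PTH in WT libraries. In Y428F libraries it had 0, 3 and 1 counts with vehicle and 0 in each library with PTH. Its counts were fractional too.

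The next group comprised membrane and vesicle proteins that are best known from neurons. *Adam23* (ENSMUSG00000025964.16, chromosome 1, 63484875 to 63635436, plus strand) encodes a member of the ADAM family without protease activity that takes part in cell adhesion. It had 309, 295 and 341 counts in WT libraries with vehicle and 292, 289 and 270 with PTH, the most even values across treatment among the more abundant of the 13. In Y428F libraries it had 0 counts in 5 libraries and 1 in the other. Of 16 other *Adam* genes tested, 4 were lower in Y428F cells with vehicle and 2 were higher, against 22.7% lower and 22.4% higher among all genes. *Adam22*, another member without protease activity, was higher in Y428F cells, at 1.63 and 7.73 CPM (log2 fold change 2.25, adjusted p = 2.99e-08). *Nsg1* (ENSMUSG00000029126.8, chromosome 5, 38294536 to 38317251, minus strand) encodes an endosomal protein of receptor trafficking. It had 192.85, 162.22 and 162.43 counts with vehicle and 171.44, 172.45 and 156.24 with PTH in WT libraries, and a single count over the 6 Y428F libraries. Its WT counts were fractional, so some of its reads were shared with other genes. Both genes were thus without reads in nearly all Y428F libraries while the values of both WT groups overlapped.

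*Tyr* (ENSMUSG00000004651.7, chromosome 7, 87073979 to 87142720, minus strand) encodes tyrosinase, the rate-limiting enzyme of melanin synthesis in pigment cells. It had 151, 180 and 143 counts in WT libraries with vehicle and 151, 150 and 167 with PTH. In Y428F libraries it had 1, 4 and 0 counts with vehicle and 1, 1 and 1 with PTH. Most of the other pigment cell genes had few or no counts. Of 12 such genes, the melanin synthesis genes *Tyrp1* and *Dct* had no counts in any library, and *Kit* had none either. *Sox10* and *Mlana* had none in WT libraries. *Mitf*, the regulator of pigment genes, had vehicle levels of 3.51 CPM (WT) and 2.62 CPM (Y428F) (log2 fold change -0.42, adjusted p = 0.119). The 3 genes of the list that were abundant enough for the test were not called with vehicle, and with PTH *Mc1r*, the melanocortin receptor, was lower (adjusted p = 0.0485). *Nox4*, 26061 bases from *Tyr*, was higher in Y428F cells (3.87 and 7.03 CPM, log2 fold change 0.86, adjusted p = 0.000199).

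The 250 bases before the *Tyr* start are shown because they hold no CpG and 2 of the motifs searched (RefSeq, GRCm38.p6, chr7:87493513-87493762, minus strand). Capitals mark TATAAA, far from the start, and CATGTG near it, a form of the E-box.
Tyr: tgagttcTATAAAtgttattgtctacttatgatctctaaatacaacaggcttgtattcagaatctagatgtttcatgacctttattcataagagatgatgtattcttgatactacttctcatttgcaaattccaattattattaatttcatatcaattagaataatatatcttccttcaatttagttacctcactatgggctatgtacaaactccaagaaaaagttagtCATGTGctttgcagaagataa

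The last group comprised the signalling and transcription regulators *Trib2* and *Pygo1*, with *2510009E07Rik* and *Prr16*, which were placed in no other group. *Trib2* (ENSMUSG00000020601.9, chromosome 12, 15841714 to 15866923, minus strand) encodes a pseudokinase that steers substrates such as C/EBPα to degradation and is studied in adipocyte and blood cell differentiation. It had 84, 130 and 135 counts in WT libraries with vehicle and 113, 141 and 154 with PTH. It had 0 counts in all 6 Y428F libraries, the only one of the 13 genes for which this was so. Against a floor of 3 counts over the 6 Y428F libraries, its level in WT cells was at least 266-fold higher. Its relatives moved the other way. With vehicle *Trib1* went from 6.82 CPM in WT to 12.0 CPM in Y428F cells (log2 fold change 0.82, adjusted p = 1.45e-05), and *Trib3* had 69.8 and 117.6 CPM (log2 fold change 0.75, adjusted p = 3.85e-06).

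The stretches before *Trib2* (chr12:15816786-15817035, minus strand) and *Adam23* (chr1:63445641-63445890, plus strand) are shown as examples of the CpG-rich class of promoter in this group (RefSeq, GRCm38.p6). Capitals mark each CpG, of which the first has 34 and the second 27.
Trib2: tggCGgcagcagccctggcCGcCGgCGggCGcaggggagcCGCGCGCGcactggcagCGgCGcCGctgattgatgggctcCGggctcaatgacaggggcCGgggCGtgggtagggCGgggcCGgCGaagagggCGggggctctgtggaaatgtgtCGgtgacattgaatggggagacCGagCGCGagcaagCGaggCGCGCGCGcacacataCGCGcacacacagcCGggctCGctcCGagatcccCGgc
Adam23: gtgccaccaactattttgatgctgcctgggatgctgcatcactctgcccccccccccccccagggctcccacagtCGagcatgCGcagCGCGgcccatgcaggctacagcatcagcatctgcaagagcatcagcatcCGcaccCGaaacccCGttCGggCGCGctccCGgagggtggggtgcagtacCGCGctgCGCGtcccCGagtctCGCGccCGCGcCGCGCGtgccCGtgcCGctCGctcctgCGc

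*Pygo1* (ENSMUSG00000034910.6, chromosome 9, 72832366 to 72859865, plus strand) encodes a PHD finger coactivator of β-catenin in WNT signalling. It had 61, 80 and 62 counts with vehicle and 54, 79 and 64 with PTH in WT libraries, and at most 3 in a Y428F library. Its relative *Pygo2* remained abundant, at 158.8 and 137.6 CPM (log2 fold change -0.21, adjusted p = 0.00665). *2510009E07Rik* (ENSMUSG00000043391.11, chromosome 16, 21467793 to 21513738, minus strand), which has no established role, was the least abundant, with 57, 48 and 52 counts with vehicle and 47, 59 and 47 with PTH in WT libraries, and at most 2 in a Y428F library. *Prr16* (ENSMUSG00000073565.6, chromosome 18) encodes a proline-rich protein linked to cell size. It had 90, 124 and 92 counts with vehicle and 104, 115 and 84 with PTH in WT libraries, and at most 5 in a Y428F library.

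The RefSeq table held promoters of 300 bases, from 250 before the start to 50 after it, for 6 of the 13 genes. These were *Rsad2*, *Tyr*, *Trib2*, *Adam23*, *Pygo1* and *2510009E07Rik*. A promoter was counted as CpG rich when its CpG content was at least 0.6 of that expected from its bases and its GC content at least 50%. Of the 6 promoters, 4 were CpG rich (66.7%), compared with 70.0% of 10572 promoters of genes with at least 40 counts in each WT library and 33.5% of all 32851. With stricter limits of 0.75 and 55%, the shares were 66.7%, 48.1% and 22.2%, so the comparison with expressed genes depends on the limits. *Trib2* had a ratio of observed to expected CpG of 1.09, *Pygo1* 0.908, *Adam23* 0.879 and *2510009E07Rik* 0.857. *Rsad2* had a ratio of 0.291 and *Tyr* of 0, so the group held both classes of promoter. Motifs were searched on both strands as exact letters. GGAATG, the TEAD motif through which YAP acts on its targets, was in 0 of the 6 promoters and in 11.6% of promoters of expressed genes. TGACGTCA, the cAMP response element, was in 0 and in 3.06%, and TGTGGT, the RUNX motif, in 0 and in 11.8%. TGANTCA, the AP-1 motif, was in *Rsad2* alone (4.85% of expressed genes), the ISRE in *Rsad2* alone (3.11%), TATAAA in *Rsad2* and *Tyr* (6.70%), CATGTG in *Tyr* and *2510009E07Rik* (7.95%), and neither CACGTG (10.1%) nor TTCNNNGAA (6.51%) was in any of the 6. With 6 promoters these shares are descriptions of single genes.

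The interferon-linked genes among the 13 were part of a broader difference. *Rsad2*, *Iigp1c* and *Gbp11* are on a list of 70 interferon-stimulated genes, which was written once the 13 genes were known. Of the other 67 genes of that list, 65 were abundant enough for the test, and with vehicle 64 of them were lower in Y428F cells and 0 were higher, against 22.7% lower and 22.4% higher among all 17691 genes. Of the 62 with at least 10 counts over the libraries of each line, 61 were lower, against 25.9% of all such genes. The count of higher genes was also 0 at an unadjusted p under 0.05 and by DESeq2. The median log2 fold change was -3.38 (range -6.65 to -0.06), compared with 0.01 over all genes tested, and remained -3.38 with *Psmb8*, the one gene at 0 counts in the Y428F libraries with vehicle, at the bound that 3 counts give. With PTH 65 of 65 were lower (23.0% of all genes) with a median of -3.54. The comparisons with vehicle and with PTH have no library in common. Both come from the same fit with a shared estimate of the spread and compare the same lines, so they are not independent. Summed over the list, the level was 6048 ± 343 CPM (SD, n = 3) in WT cells with vehicle, 5853 ± 1274 in WT cells with PTH, 1069 ± 3.15 in Y428F cells with vehicle and 985.7 ± 14.5 in Y428F cells with PTH. The one gene not called with vehicle was *Isg20*, a nuclease, at 54.9 and 52.5 CPM (log2 fold change -0.06, adjusted p = 0.492).

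The members of the list fell to very different remaining levels. *Ifit3*, an antiviral RNA-binding protein, had 7230.75, 6945.03 and 6759.63 counts in WT libraries and 230.9, 234.92 and 204.2 in Y428F libraries with vehicle. *Bst2*, the virus-tethering protein and the most abundant gene of the list, had 7920, 8979 and 9946 counts in WT and 1134, 1285 and 1135 in Y428F libraries with vehicle. Both were thus reduced but far above background in Y428F cells. *Usp18*, a brake on interferon signalling, went from 95.9 to 2.33 CPM (log2 fold change -5.36, adjusted p = 4.71e-15), and *Irf7*, an amplifier of the interferon response, from 91.7 to 5.08 CPM (log2 fold change -4.17). Among transcription factors of the interferon response, *Stat2* went from 153.5 to 29.5 CPM (log2 fold change -2.38) and *Irf9* from 101.9 to 27.2 CPM (log2 fold change -1.91). *Ddx60* had 240, 276 and 191 counts in WT libraries with vehicle and 3, 1 and 5 in Y428F libraries, and up to 8 with PTH, which left it just outside the group.

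The interferon receptors and their signalling genes, a list of 25 written at the same time, also held many lower genes, with smaller differences. Of 21 tested, 11 were lower and 2 were higher in Y428F cells with vehicle, with a median log2 fold change of -0.37, against 22.7% lower and 22.4% higher among all genes. The receptor subunit *Ifnar1* had 79.7 and 73.8 CPM (log2 fold change -0.11, adjusted p = 0.115) and *Ifnar2* had 61.1 and 41.1 CPM (log2 fold change -0.57, adjusted p = 5e-07). The kinase *Jak1* had 278.7 and 283.5 CPM (log2 fold change 0.02, adjusted p = 0.774). The largest difference among those called was that of *Tlr3*, the sensor of double-stranded RNA, from 43.9 to 11.9 CPM (log2 fold change -1.88, adjusted p = 1.38e-09). The interferon genes named next were near or at 0 in both lines, which does not cover the rest of the family. With vehicle *Ifnb1* was at 0.111 CPM (WT) and 0.0364 CPM (Y428F), *Ifna2* and *Ifna4* had no counts in any library, and *Ifng* had none in WT libraries.

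**Figure D3:**
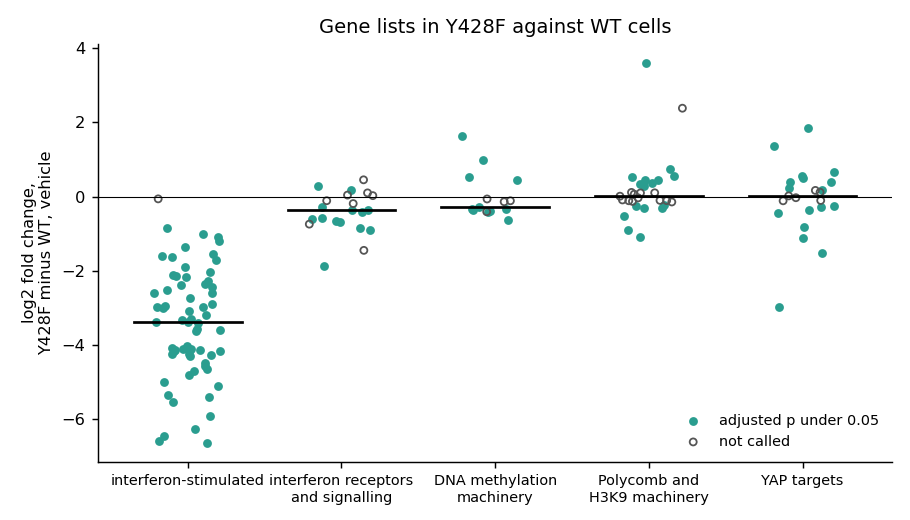
log2 fold change of Y428F against WT cells with vehicle (y axis) for the genes of 5 lists, without the 13 genes. Filled points have an adjusted p under 0.05, open points were not called, and bars mark the list medians, which lie at -3.38 for the interferon-stimulated list and between -0.37 and 0.02 for the others.

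Other gene lists held lower and higher genes, to be read against the 22.7% lower and 22.4% higher among all 17691 genes. Of 23 YAP target genes tested, 8 were lower and 9 were higher in Y428F cells with vehicle, with a median log2 fold change of 0.02, and none of the 13 genes was on that list. Among 15 genes of the DNA methylation machinery, 7 were lower and 4 were higher, with a median log2 fold change of -0.28. The maintenance methyltransferase *Dnmt1* (log2 fold change 0.45) and its partner *Uhrf1* (0.98) were higher, and the oxidising enzymes *Tet1* (-0.63), *Tet2* (-0.38) and *Tet3* (-0.41) were lower. Other genes of this list, called in both directions, are not named, so these examples do not give a direction for the machinery. Among 29 genes of the Polycomb and H3K9 methylation machinery, 7 were lower and 9 were higher, with a median of 0.01, and again only some are named. *Ezh2* (0.55), *Suz12* (0.76) and *Eed* (0.44), the core of the Polycomb repressive complex that methylates H3K27, were higher, and the H3K9 methyltransferase *Setdb1* was lower (-1.08). Methylation and chromatin were not measured in these files, so the part of these genes in the silent state was not tested. *Yap1* itself, which includes reads of the cells' own gene and any of the introduced copy that match it, went from 188.8 ± 7.21 CPM in WT to 146.6 ± 4.66 CPM in Y428F cells with vehicle (SD, n = 3, log2 fold change -0.37, adjusted p = 7.7e-06).

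Marker genes were used to see whether the lines differ in cell type. Among all 17691 genes tested with vehicle, 22.7% were lower and 22.4% were higher, and the marker lists are to be read against these shares. For the lists with 4 or 6 tested genes the counts are a description only. Of 16 BMSC markers, 14 were tested, 11 were lower and 2 were higher in Y428F cells with vehicle, and their summed level was 27870 ± 1739 CPM (WT) and 19410 ± 692 CPM (Y428F). The most abundant was *Col1a2* (12830 and 7746 CPM), and *Thy1* had no counts in any library. Other mesenchymal lists were also expressed. The osteoblast list summed to 869.6 CPM (WT) and 575.9 CPM (Y428F), mostly *Spp1* (768.0 and 489.3 CPM), with 2 of 6 tested genes lower and 1 higher and *Bglap* at 0 with vehicle. The adipocyte list summed to 435.3 and 425.5 CPM, mostly *Lpl* (330.2 and 367.5 CPM), with 2 of 6 tested genes lower and 3 higher and *Adipoq* at 0 with vehicle. The muscle list summed to 120.7 and 145.9 CPM with vehicle and to 530.9 and 311.1 CPM with PTH, mostly *Acta2* (106.8 and 129.3 CPM with vehicle), and 2 of 4 tested genes were higher with vehicle. The chondrocyte list summed to 59.8 and 21.0 CPM, mostly *Sox9* (55.1 and 18.5 CPM), with 2 of 4 tested genes lower. Blood, endothelial, epithelial and neural markers had low sums in both lines, yet some were higher in Y428F cells with vehicle. Of the markers with at least 10 counts over the libraries of each line, 3 of 5 haematopoietic, 1 of 2 endothelial and 2 of 2 epithelial ones were higher, against 24.4% of all such genes, and 1 of 3 neural ones was lower. The 9 haematopoietic markers summed to 8.28 CPM (WT) and 18.5 CPM (Y428F), of which *Cd14* made up 6.09 and 11.0 CPM, and the defining gene *Ptprc* had 0.853 and 2.79 CPM. The 6 endothelial markers summed to 1.42 and 8.93 CPM, mostly *Cdh5* (0.810 and 7.95 CPM). The 5 epithelial markers summed to 0.641 and 3.87 CPM, with *Epcam* at 0 in every library. The 7 neural markers summed to 2.46 and 0.894 CPM, and *Snap25* was at 0. The part of these differences in the 13 genes was not tested.

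Genes beside the 13 were examined to see whether whole regions were silent. The nearest gene with a mean of at least 1 CPM was taken on each side of the 12 genes with a position, which gave 23 neighbours. In Y428F against WT cells with vehicle, 10 of them were lower and 5 were higher, against 30.9% lower and 28.7% higher among the 12038 genes of that abundance. The neighbours with the largest decreases were *Gm4841*, *Gbp6*, *Sp140l2* and *Sp110*, each beside an interferon-linked or *Sp100*-region gene. These 4 and *Pierce2* reached the mean of 1 CPM only through WT cells and so had to be lower, as *Dcdc2c* had to be higher, and the counts of neighbours are given as a description only. The largest increase was that of *Id2*, an inhibitor of helix-loop-helix factors 1345463 bases from *Rsad2*, at 2.30 and 9.09 CPM (log2 fold change 1.99, adjusted p = 3.49e-09). The other 6 lower neighbours changed much less, from -0.38 for *Vps8*, 3975 bases from *2510009E07Rik*, to -1.17 for *Pierce2*, 26912 bases from *Pygo1*. Around *Adam23*, *Eef1b2* had 345.5 and 366.4 CPM (log2 fold change 0.08, adjusted p = 0.347) and *Fastkd2* was slightly higher (log2 fold change 0.35, adjusted p = 0.0394). Around *Prr16*, *Hsd17b4* (144.7 and 132.2 CPM, adjusted p = 0.0751) and *Srfbp1* (18.5 and 17.4 CPM, adjusted p = 0.46) were not called, at distances of 920317 and 1045625 bases. *Rsad2* had *Rnf144a* within 300 kb, which went from 0.926 CPM to 0 counts with vehicle (at least 17.4-fold, same floor). Some less abundant genes within 300 kb were also at 0 in Y428F cells. *Gm48558*, the one tested gene that close to *Trib2*, had 5, 1 and 1 counts in WT libraries with vehicle, and *Dnaaf4* and *Rab27a* lay near *Pygo1*, at no more than 5 counts in any WT library. These genes and *Rnf144a* had 0 counts in all 6 Y428F libraries and entered the test only through WT cells, so that they could only be lower, and no test is given for them.

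**Figure D4:**
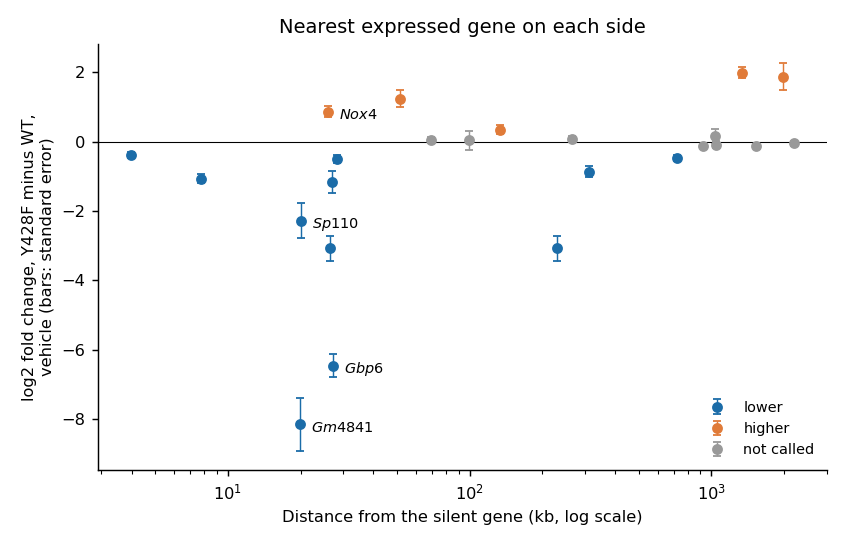
log2 fold change of Y428F against WT cells with vehicle (y axis, bars are standard errors) of the nearest expressed gene on each side of 12 of the 13 genes, against the distance between them in kb (x axis, log scale). *Sp140l2* neighbours both predicted genes and appears at 2 distances. The largest decreases belong to *Gm4841*, whose fitted value depends on the prior count because it had 0 counts in Y428F libraries with vehicle, and *Gbp6*.

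The contrast of PTH with vehicle in WT cells was not the one that chose the genes, but the limit of 40 counts held for all 6 WT libraries. A gene that PTH moved across that limit was therefore left out, and the counts below lean towards no change. The third WT library with PTH alone kept out *Ehd3*, *F830016B08Rik*, *Gm7609* and *H2-Q4*. None of the 13 was called at an adjusted p under 0.05, with 0 lower and 0 higher, against 4.91% lower and 6.88% higher among the 15583 genes tested in the 6 WT libraries. At an unadjusted p under 0.05, 2 were lower and 0 were higher, and DESeq2 called 0. Some other settings, given in the closing section, called 1 to 3 of the 13 genes lower, with *Rsad2* among them each time. The log2 fold changes were negative for 7 genes and positive for 6, with a median of -0.01, as for all genes tested. *Rsad2* had the largest, -0.58 (standard error 0.196, adjusted p = 0.0753), from 22.1 ± 0.811 to 14.8 ± 5.59 CPM (SD, n = 3). *Iigp1c* followed with -0.43 (standard error 0.207, adjusted p = 0.218), and ENSMUSG00000062783 had 9.09 ± 0.449 and 6.82 ± 1.03 CPM (log2 fold change -0.41, standard error 0.136, adjusted p = 0.0709). In 3 of the 13 genes, namely *Rsad2*, *Gm7592* and ENSMUSG00000062783, every PTH library was below every vehicle library, against 14.7% of all genes. *Trib2* had the largest positive value, 0.36 (standard error 0.189, adjusted p = 0.266), with overlapping groups. With each library left out, the value of *Trib2* ranged from 0.167 (without the first WT library with vehicle) to 0.495. For *Adam23* the value was -0.01 (standard error 0.0894, adjusted p = 0.958), the narrowest error of the 13.

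One WT library with PTH weighed on these values. The third WT library with PTH was the lowest of the 6 WT libraries in CPM for 7 of the 13 genes, among them *Rsad2*, *Gm7592*, *Iigp1c* and *Gbp11*, and the highest for *Trib2*. Its median log2 difference from the vehicle mean over 66 interferon-stimulated genes was -0.51, compared with 0.18 and 0.19 in the other 2 PTH libraries and between -0.08 and 0.08 in the vehicle libraries. Over all 12038 genes of at least 1 CPM the same median was -0.02. The Y428F libraries lay between -3.30 and -3.00 on this measure. Its 66 genes include interferon-linked genes of the 13, whose low values in Y428F libraries were fixed by the choice of genes. Of 68 genes of the list tested for PTH in WT cells, 7 were lower and 0 were higher, against 4.91% and 6.88% of all genes, with 4 higher at an unadjusted p under 0.05 and 0 by DESeq2. Without the third WT library with PTH, 9 were lower and 18 were higher, against 4.05% and 7.56% of all genes in that fit. Without it *Rsad2* had a log2 fold change of -0.29 (adjusted p = 0.0481) and *Iigp1c* of -0.18 (adjusted p = 0.534). What set that library apart was not tested.

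**Figure D5:**
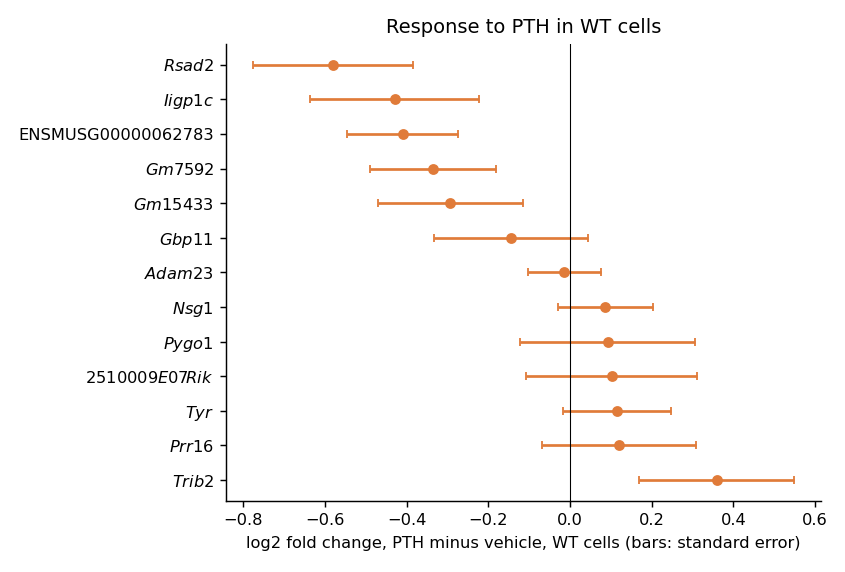
log2 fold change of PTH against vehicle in WT cells (x axis, bars are standard errors from edgeR) for each of the 13 genes. Values run from -0.58 for *Rsad2* to 0.36 for *Trib2*, and none was called in this fit.

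In Y428F cells the limit of 5 counts held with PTH as with vehicle, so the low values in both were fixed by the choice of genes and say nothing about a response to PTH there.

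The limits of 40 and 5 counts are arbitrary, and the genes nearest to them were as follows. Just inside, the lowest WT counts were 47 for *2510009E07Rik*, 54 for *Pygo1* and 55 for *Iigp1c*, and the highest Y428F counts were 5 for *Prr16* and *Gbp11*. Just outside, *H2-Q4*, a class I histocompatibility gene, had 39 counts in its lowest WT library and at most 2 in Y428F libraries. *Apod*, *Kcnc2* and *F830016B08Rik* had 34 counts in their lowest WT library. *Man1c1*, *Garem2* and *Lhfpl3* exceeded the limit with 6 counts in a Y428F library. The reverse rule, at most 5 counts in each WT library and at least 40 in each Y428F library, gave 31 genes, or 0.291% of the 10669 genes with at least 40 counts in each Y428F library. The most abundant of these was *Bche*, butyrylcholinesterase, with a mean of 725 counts, followed by *Ly6g* with 323.7. None of the 31 was on the interferon-stimulated list. By chromosome, 4 of those 31 and none of the 12 genes with a position lay on the X chromosome. The X chromosome held 333 of the 10638 genes with at least 40 counts in each WT library. That base fits the 12 genes but cannot contain the 31, and these numbers are a description only.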

How the data were processed

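The authors aligned the reads of 12 poly-A libraries with STAR 2.7.10b to GRCm39 and deposited RSEM expected counts per gene, unscaled for library size or gene length. Whether strand was used in counting is not given in the sources used here. Expected counts were rounded and fitted with edgeR 4.0.16 in R 4.3.3 (TMM, quasi-likelihood test, Benjamini-Hochberg adjustment over genes that summed to 10 or more counts). PTH against vehicle was fitted on the 6 WT libraries, and Y428F against WT on all 12. An adjusted p under 0.05 was a call. DESeq2 1.42.0, other scalings and filters, a replicate block and each library left out were alternatives. Tests were tried on simulated data. Libraries within each group were less alike than counting error allows (chi-square per degree of freedom 2.87 to 14.2). Positions came from GENCODE vM39, which matched 56236 identifiers. The 13 genes and all lists were chosen with earlier results of these data known. The 2 interferon lists, the pigment list and the motifs ISRE, TTCNNNGAA and CATGTG were added after the 13 genes were seen. Named genes were all 13, those nearest to the limits, their neighbours and family relatives (same letters before the first digit), and list genes. Others, such as *Rnf144a* and *Cab39*, were chosen after their values were seen.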

Additional observations from a re-analysis of the deposited data

How the results depend on the processing

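The number of genes expressed in WT and silent in Y428F cells depends on the limits. It was 55 with limits of 20 and 10 counts, 5 with 100 and 5, 1 with 40 and 0 (*Trib2*), and 22 with the PTH libraries alone. It stayed within 1.5 times of 13 with the vehicle libraries alone (19) and with limits of 2 and 0.25 CPM (13, of which 11 were shared), and with each library left out it was 13 to 17, where the rule allows only additions. The 17 arose without replicate 3 of WT with PTH. For PTH in WT cells, the number of the 13 that were lower went from 0 to 1 with all 12 libraries fitted, 2 with library totals only, 3 with no filter on low counts and 1 with the replicate block, and to between 0 and 1 with each library left out. The gene called was *Rsad2* in each (adjusted p = 0.0469, 0.0485, 7.89e-07 and 0.018), beside ENSMUSG00000062783 with library totals (0.0381) and with no filter (0.0431), and *Gm7592* with no filter. The cause was not tested. Small log2 fold changes reversed without 1 library. With each library left out *Adam23* ranged from -0.039 to 0.043 (positive without replicate 3 of PTH or of vehicle), *Pygo1* from -0.076 to 0.269 and *2510009E07Rik* from -0.029 to 0.177 (both negative without replicate 2 of PTH). Same-numbered libraries did not deviate together (mean correlation 0.0019, range -0.0311 to 0.0371 over 18 pairs), so the numbers were not taken as pairs. For the interferon-stimulated list, alternatives chosen after the data were seen moved the 7 lower genes with PTH to 15 with no filter, 12 with the replicate block, 2 at an adjusted p under 0.01 with a log2 fold change beyond 0.3, and 2 to 9 with each library left out, and the 0 higher genes to 10, 1 and, with each library left out, 0 to 18. The same 64 genes were lower in Y428F cells with each library left out. For neighbours, the 10 lower and 5 higher became 28 and 18 of 68 with the 3 nearest on each side, and 8 and 3 of 13 within 200 kb. Counts of 0 to 5 per library limit any statement on Y428F cells.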
